A study of Homo sapiens with 3 samples.

Results

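The genes described here encode the enzymes that make serine and move its carbon onto folate. They are 10 genes, taken by name from the 58735 genes counted in RNA sequencing libraries of A549 cells, an established human lung adenocarcinoma line. The 3 serine synthesis genes are PHGDH, PSAT1 and PSPH, and the 7 folate genes are SHMT1, SHMT2, MTHFD1, MTHFD2, MTHFD1L, MTHFD2L and ALDH1L2. The study compared a control library (Control-sh) with 2 libraries from cells in which DDX24, a DEAD-box RNA helicase, was knocked down by lentiviral short hairpin RNAs (shRNAs), here DDX24-sh1 and DDX24-sh2. According to the study's methods the lines were made with the lentiviral pLKO.1 vector, selected for stable integration and kept under puromycin, and the control cells carried that vector empty, although a figure legend of the study names a control shRNA. All 3 lines were grown in F12K medium with serum, and no further treatment is named for any of them. Each condition had 1 library, so no difference below has a replicate or a p-value, and both shRNA libraries were set against the same control culture.

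Serine is built from the glycolytic intermediate 3-phosphoglycerate in a chain of reactions run by PHGDH, PSAT1 and PSPH in turn. The SHMT enzymes then split serine into glycine and a carbon unit carried by tetrahydrofolate, SHMT2 in mitochondria and SHMT1 in the cytosol. Mitochondrial MTHFD2 or MTHFD2L and MTHFD1L turn this unit into formate, which cytosolic MTHFD1 takes up again for purine and thymidylate synthesis, while ALDH1L2 oxidizes it to carbon dioxide with release of NADPH. In lung cancer cells several of these genes are known to be induced by the stress transcription factor ATF4, and A549 cells carry an inactive KEAP1 and hence an active NRF2, which has been placed upstream of ATF4 in serine synthesis.

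Since the serine and folate genes are often described as co-regulated, their promoter windows are shown first. RefSeq windows on GRCh38.p14, from 250 bases before to 50 bases after an annotated start, were found for 7 of the 10 genes, all but PSPH, SHMT2 and ALDH1L2. Motifs outside these windows, further away or in introns, were not looked for. The core of the ATF4 and C/EBP response element, TGATGNAA on either strand, was found in the windows of MTHFD1L only among these 7 genes, and in those of 4.46% of all 27305 genes with a window. Its first base lay 129 and 90 bases before 2 of the annotated starts of MTHFD1L and 24 bases after another. The 30 bases around it on the plus strand (chr6:150866346-150866375), with the motif in capitals, are given with those of the serine and neutral amino acid transporters SLC1A4 (chr2:64989381-64989410, plus strand) and SLC1A5 (chr19:46784893-46784922, minus strand), the genes of the one-carbon list described further on in which it was also found. These were 2 of the 34 genes of that list with a window, or 5.88%, near the 4.46% of all genes. In SLC1A5 the match lay 97 bases before the annotated start at 46784814, and the window of the start further upstream at 46788594 held none.
MTHFD1L: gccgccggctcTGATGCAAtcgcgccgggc
SLC1A4: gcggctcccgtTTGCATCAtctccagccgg
SLC1A5: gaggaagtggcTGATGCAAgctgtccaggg

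The CCAAT box, the binding sequence of NF-Y, was looked for after these windows had been read. On either strand it was present for 6 of the 7 genes (PHGDH, PSAT1, SHMT1, MTHFD1, MTHFD2 and MTHFD1L) and for 39.7% of all genes with a window. Genes with several annotated starts had several windows and so more chances to hold either motif. The sequences below are stretches of 100 bases ahead of the annotated start that no GENCODE exon of the gene covers, with CCAAT or its complement ATTGG in capitals. They are from PSAT1 (chr9:78297025-78297124, plus strand), MTHFD2 (chr2:74198462-74198561, plus strand) and MTHFD1L (chr6:150866233-150866332, plus strand), whose counts were lower in both shRNA libraries, and from SHMT1 (chr17:18363564-18363663, minus strand), whose counts were not. The MTHFD1L stretch lies within the GENCODE bounds of that gene, which begin at 150865549.
PSAT1: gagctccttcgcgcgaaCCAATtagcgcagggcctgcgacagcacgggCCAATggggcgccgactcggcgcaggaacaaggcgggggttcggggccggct
MTHFD2: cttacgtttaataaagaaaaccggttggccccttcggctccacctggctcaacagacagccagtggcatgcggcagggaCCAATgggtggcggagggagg
MTHFD1L: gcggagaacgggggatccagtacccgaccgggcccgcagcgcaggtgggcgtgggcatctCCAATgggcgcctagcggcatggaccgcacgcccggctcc
SHMT1: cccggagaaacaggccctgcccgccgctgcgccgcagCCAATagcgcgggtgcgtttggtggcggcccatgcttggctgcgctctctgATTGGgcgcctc
Whether the CCAAT box had a part in the differences of the counts was not tested. A match of these letters is a description of the sequence and not evidence of binding.

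The libraries held 17218884 to 18337471 counts, which were scaled by edgeR's TMM method (trimmed mean of M-values) to CPM, the counts of a gene in every 1000000 counts of a library. Ratios to the control are given as log2 of scaled counts with a prior count of 2. Beside them stands the exact 95% binomial interval of the 2 counts, which covers counting error only and no variation between cultures. PCR copies of a molecule cannot be told apart without molecular identifiers, so the interval may be too narrow even for counting error. DDX24 itself had 2010, 637 and 765 counts in the control, DDX24-sh1 and DDX24-sh2 libraries, or 29.6% and 36.0% of the control level. The gene shares 640 exonic bases with OTUB2 on the opposite strand, which had 144, 219 and 260 counts. Whether counting used strand is not given, so a part of the DDX24 counts cannot be assigned with certainty. Of the epithelial markers, KRT8 was abundant with 63926 to 69499 counts, whereas EPCAM had only 29 to 32 counts. KRT19 was higher in the shRNA libraries (1001, 2251 and 2728 counts) and CDH1 lower (538, 358 and 261), while the summed epithelial markers were at 4958 to 5333 CPM, and the part of these shifts in the results was not tested. ALDH1A1, known to be abundant in A549 cells, had 96250 to 106051 counts. Of the 3 leukocyte markers, PTPRC and CD3E had 0 counts in every library, which allows up to 3 counts each, but CD14 had 139, 108 and 75 counts, and its part in the results was not tested. The summed fibroblast markers were at 8.32 to 11.04 CPM. Counts of the mitochondrial genome made up 4.36% of the control library, 5.13% of DDX24-sh1 and 7.04% of DDX24-sh2, and their part in the results was not tested. The labels of the shRNA libraries were exchanged between the deposited counts and the deposited FPKM values, and which set is right is not known. Both names are used as the count data give them.

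Summed over the pathway, counts were lower in both DDX24 shRNA libraries, and unevenly so between its arms. The 10 genes together held 25431 counts in the control, 0.148% of the library, against 14960 (0.0816%) in DDX24-sh1 and 16312 (0.0914%) in DDX24-sh2. Their summed level was thus 54.9% and 60.7% of the control. In bulk RNA, fewer cells with a transcript and less of it per cell cannot be told apart. The sums of serine synthesis and of the mitochondrial folate enzymes were lower, from 629.4 CPM to 290.5 and 316.5 CPM and from 630.5 CPM to 277.6 and 333.5 CPM, respectively. The sum of the cytosolic enzymes SHMT1 and MTHFD1 was not, at 230.1 CPM in the control, 249.8 CPM in DDX24-sh1 and 253.7 CPM in DDX24-sh2. Such sums take no account of gene length and follow the most counted genes. PSAT1 alone was at 424.0, 201.2 and 224.3 CPM, and MTHFD2 at 377.0, 114.5 and 139.7 CPM. Not every mitochondrial enzyme was lower in DDX24-sh2, where SHMT2 was at 95.6% and MTHFD2L at 104.2% of the control.

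All 10 genes passed the filter of a mean of at least 1 CPM, which 13984 genes passed. At least 2-fold lower levels than in the control were found for 4 of the 10 genes in DDX24-sh1 (PHGDH, PSAT1, MTHFD2 and ALDH1L2), beside 2.27% of all genes past the filter, and for 3 of them in DDX24-sh2 (all but PSAT1), beside 3.07%. These 3 genes were 2-fold lower in both, beside 1.38% of all genes. None of the 10 was 2-fold higher, beside 2.32% of all genes in DDX24-sh1, 2.89% in DDX24-sh2 and 1.19% in both. At a limit of 1.5-fold PHGDH, PSAT1, PSPH, MTHFD2, MTHFD1L and ALDH1L2 were lower, 6 of 10 in each library and in both, beside 8.25%, 9.51% and 4.72%. None of the 10 was 1.5-fold higher, beside 7.59%, 8.6% and 4.23%. Intervals that lay below 0, a weaker criterion, were found for 8 of the 10 in DDX24-sh1, beside 29.5%, for 6 in DDX24-sh2, beside 30.8%, and for those 6 in both, beside 20.6%. The median log2 ratio of the 10 genes was -0.75 for the DDX24-sh1 library and -0.67 for DDX24-sh2, whereas the medians of all genes past the filter were -0.02 and -0.03. These counts describe a set of genes chosen with earlier results of the same libraries known.

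**Figure D1:**
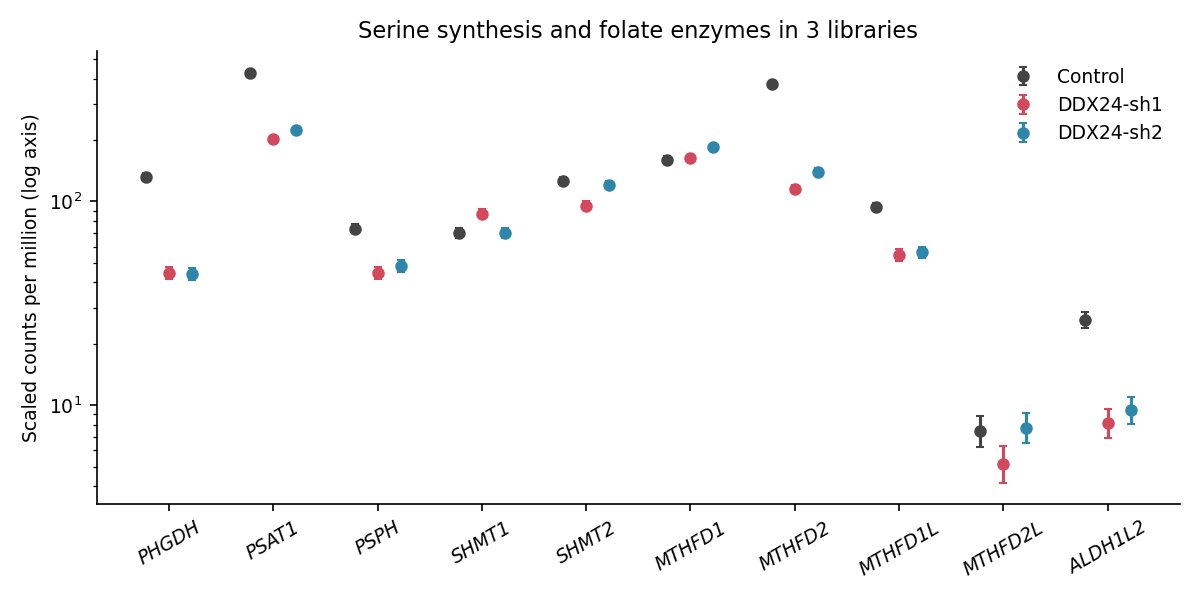
Scaled counts in CPM (log axis) of the 10 enzymes in the control (grey), DDX24-sh1 (red) and DDX24-sh2 (blue) libraries, 1 library each, with exact 95% Poisson intervals of the counts. The control lies above both shRNA libraries for PHGDH, PSAT1, PSPH, SHMT2, MTHFD2, MTHFD1L and ALDH1L2, and below both for MTHFD1. The interval of the control overlaps that of DDX24-sh2 for SHMT2 and that of DDX24-sh1 for MTHFD1.

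PHGDH, which oxidizes 3-phosphoglycerate and opens the serine pathway, had 2251 counts in the control but 816 in DDX24-sh1 and 797 in DDX24-sh2. Both shRNA libraries were far below the control and next to each other. Their log2 ratios were -1.56 (interval -1.68 to -1.45) and -1.58 (interval -1.70 to -1.46), so that 33.8% and 33.5% of the control level remained. Of all genes past the filter, 0.536% in DDX24-sh1 and 0.830% in DDX24-sh2 had a lower ratio. The gene spans 95.8 kb of chromosome 1 (119648411 to 119744226, plus strand), and no other annotated gene overlaps it.

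PSAT1, the aminotransferase of the next step, was the most counted of the 10 genes, with 7237, 3681 and 4048 counts in the same order of libraries. The control again lay above both shRNA libraries. DDX24-sh1 was just past the 2-fold limit at a log2 ratio of -1.07 (interval -1.13 to -1.02), and DDX24-sh2 just short of it at -0.92 (interval -0.97 to -0.86). PSAT1 lies on chromosome 9 (78297143 to 78330093, plus strand). PSPH, the phosphatase that releases serine, had 1255, 816 and 868 counts in these libraries and was the least lowered of the 3 enzymes. The ratios were -0.72 (interval -0.85 to -0.59) for DDX24-sh1 and -0.61 (interval -0.74 to -0.49) for DDX24-sh2. PSPH lies on chromosome 7 (56011051 to 56051604, minus strand). The difference was largest for PHGDH and smallest for PSPH in both libraries, which share the control. The counting intervals of the 3 genes did not overlap in either library.

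MTHFD2, the mitochondrial dehydrogenase and cyclohydrolase, showed the lowest ratio of the 10 genes in DDX24-sh1. Its 6435 control counts stood against 2095 (DDX24-sh1) and 2522 (DDX24-sh2). The log2 ratios were -1.72 (interval -1.79 to -1.65) and -1.43 (interval -1.50 to -1.37), and 30.4% and 37.1% of the control level remained. Its gene lies on chromosome 2 (74198562 to 74217565, plus strand). ALDH1L2, the mitochondrial 10-formyltetrahydrofolate dehydrogenase, was lower to a similar extent at a much lower level, with 448 control counts, 149 in DDX24-sh1 and 170 in DDX24-sh2. It is encoded on chromosome 12 (105019784 to 105084577, minus strand). Log2 ratios were -1.67 (interval -1.97 to -1.42) and -1.47 (interval -1.74 to -1.22), whose intervals overlapped those of MTHFD2 in both libraries. MTHFD1L, the mitochondrial formyltetrahydrofolate synthetase that releases formate, is encoded on chromosome 6 (150865549 to 151101887, plus strand) and had 1602, 998 and 1016 counts. At -0.78 (interval -0.90 to -0.67) and -0.74 (interval -0.85 to -0.62) it was less lowered than MTHFD2, close to PSPH.

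The remaining 2 mitochondrial enzymes differed between the shRNA libraries. SHMT2, the mitochondrial serine hydroxymethyltransferase on chromosome 12 (57229327 to 57234935, plus strand), had 2149 counts in the control, fewer in DDX24-sh1 (1742) and about as many in DDX24-sh2 (2172). Only DDX24-sh1 lay below the control beyond counting error, at -0.40 (interval -0.49 to -0.31), whereas DDX24-sh2 was at -0.07 (interval -0.15 to 0.02). MTHFD2L, the less expressed relative of MTHFD2 on chromosome 4 (74114174 to 74303099, plus strand), had 127, 94 and 140 counts, and stood at -0.52 (interval -0.93 to -0.14) in the first shRNA library and 0.06 (interval -0.30 to 0.42) in the other. With so few counts a change of MTHFD2L in DDX24-sh2 of the size seen in DDX24-sh1 would have lain outside the interval, but changes within the interval were not detectable at this depth.

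In the cytosol, SHMT1, on chromosome 17 (18327860 to 18363563, minus strand), had 1194 counts in the control against 1593 (DDX24-sh1) and 1260 (DDX24-sh2). It was above the control in DDX24-sh1, at 0.32 (interval 0.21 to 0.43), and level with it in DDX24-sh2, at -0.0031 (interval -0.12 to 0.11). MTHFD1, the cytosolic enzyme with 3 activities that are split among separate proteins in mitochondria, lies on chromosome 14 (64388031 to 64463457, plus strand) and had 2733, 2976 and 3319 counts. It was level with the control in DDX24-sh1, at 0.02 (interval -0.05 to 0.10), and above it in DDX24-sh2, at 0.20 (interval 0.13 to 0.27). Intervals above 0 were thus found for SHMT1 in DDX24-sh1 and for MTHFD1 in DDX24-sh2, 1 of 10 in each, beside 23.6% of all genes in each library, and for 0 of 10 in both, beside 14% of all genes. Neither cytosolic enzyme was below the control beyond counting error in a library.

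**Figure D2:**
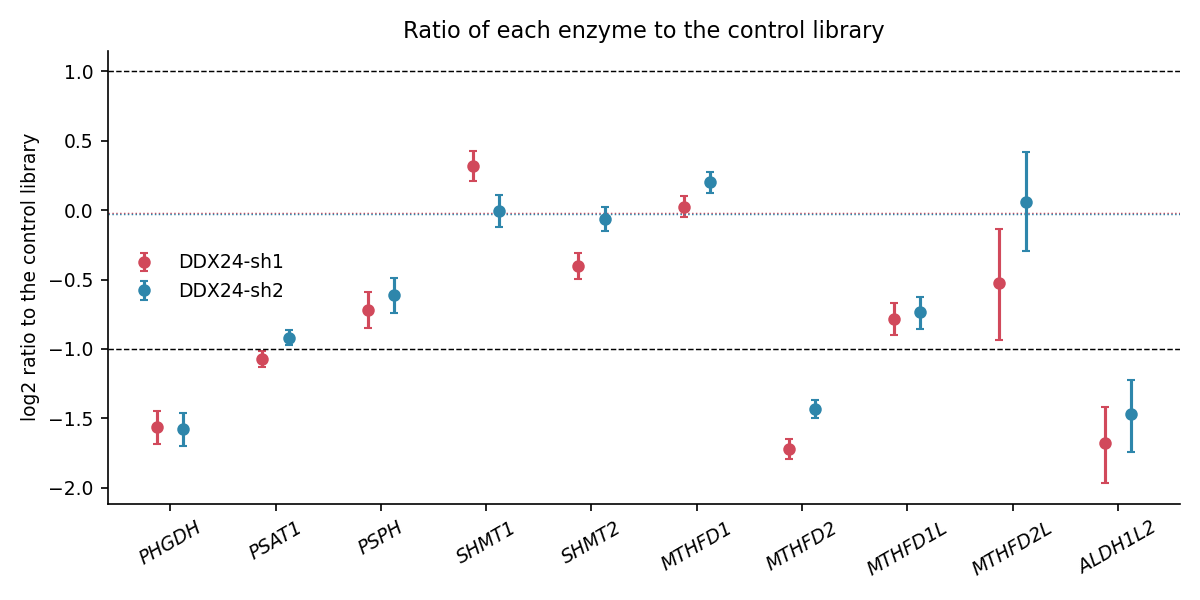
Log2 ratio of each enzyme to the control library for DDX24-sh1 (red) and DDX24-sh2 (blue), with exact 95% counting intervals. Dashed lines mark 2-fold changes and dotted lines the medians of all genes past the filter, -0.02 and -0.03. PHGDH, MTHFD2 and ALDH1L2 lie below the lower dashed line in both libraries.

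The shRNA libraries were also compared directly. For 6 of the 10 genes the interval of the difference DDX24-sh2 minus DDX24-sh1 lay on 1 side of 0, beside 44.7% of all genes past the filter. DDX24-sh2 was higher for MTHFD2L by 0.58 (interval 0.21 to 0.99), for SHMT2 by 0.34 (interval 0.25 to 0.43), for MTHFD2 by 0.29 (interval 0.20 to 0.37), for MTHFD1 by 0.18 (interval 0.10 to 0.25) and for PSAT1 by 0.16 (interval 0.09 to 0.22). SHMT1 was lower in DDX24-sh2, at -0.32 (interval -0.43 to -0.21). No difference beyond counting error was found for PHGDH, at -0.01 (interval -0.16 to 0.13), PSPH, MTHFD1L or ALDH1L2. DDX24 itself was at 34.8 CPM in DDX24-sh1 and 42.4 CPM in DDX24-sh2, and its part in these differences was not tested.

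**Figure D3:**
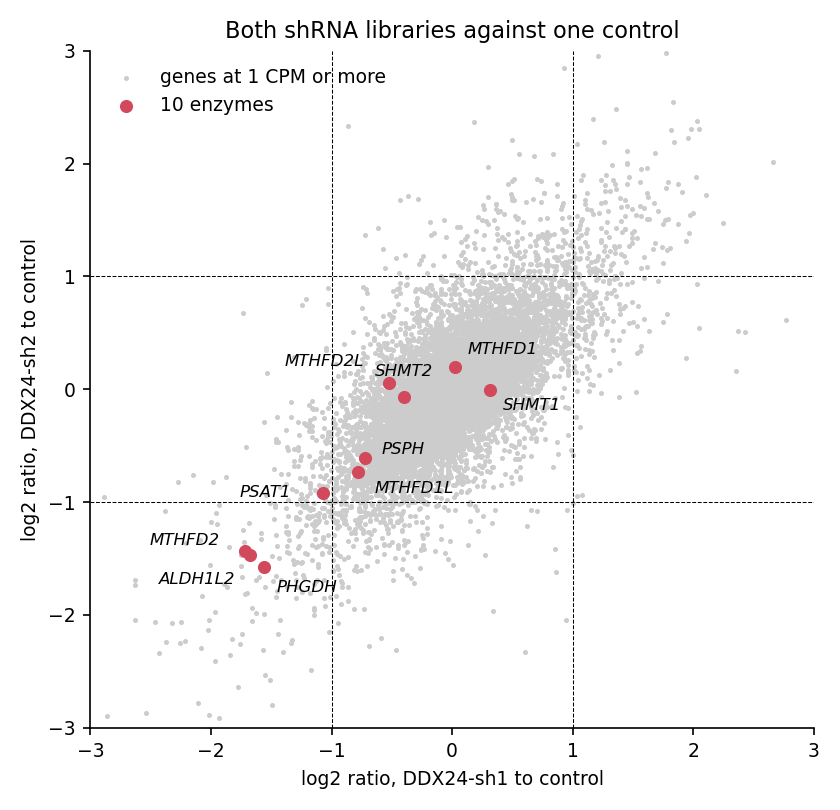
Log2 ratios to the control in DDX24-sh1 (x axis) and DDX24-sh2 (y axis), with all genes past the filter in grey and the 10 enzymes in red. Both axes share the control library, which by itself draws points towards the diagonal, and 19 genes lie outside the axes. PHGDH, MTHFD2 and ALDH1L2 sit beyond the 2-fold lines at the lower left and SHMT1, SHMT2, MTHFD1 and MTHFD2L near the centre.

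Ratios of related enzymes within a library do not depend on how the libraries were scaled. SHMT2 had 1.80 counts for each count of SHMT1 in the control, against 1.09 (DDX24-sh1) and 1.72 (DDX24-sh2). The balance of mitochondrial to cytosolic SHMT was therefore lower in DDX24-sh1, by a log2 ratio of ratios of -0.72 (exact conditional 95% interval -0.86 to -0.58), but not beyond counting error in DDX24-sh2, at -0.06 (interval -0.21 to 0.08). The count ratio of mitochondrial MTHFD1L to cytosolic MTHFD1 was 0.586 in the control, 0.335 in DDX24-sh1 and 0.306 in DDX24-sh2. It was lower in both, at -0.81 (interval -0.94 to -0.67) and -0.94 (interval -1.07 to -0.80). MTHFD2 and MTHFD2L are both mitochondrial, and their count ratio was 50.7 in the control against 22.3 (DDX24-sh1) and 18.0 (DDX24-sh2). The log2 ratios of ratios of this pair were -1.18 (interval -1.59 to -0.78) and -1.49 (interval -1.86 to -1.13). The coding sequences of the 3 pairs were 66.4% to 71.5% identical where aligned, and the longest stretch of identical bases in a pair was 14 to 20 bases.

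**Figure D4:**
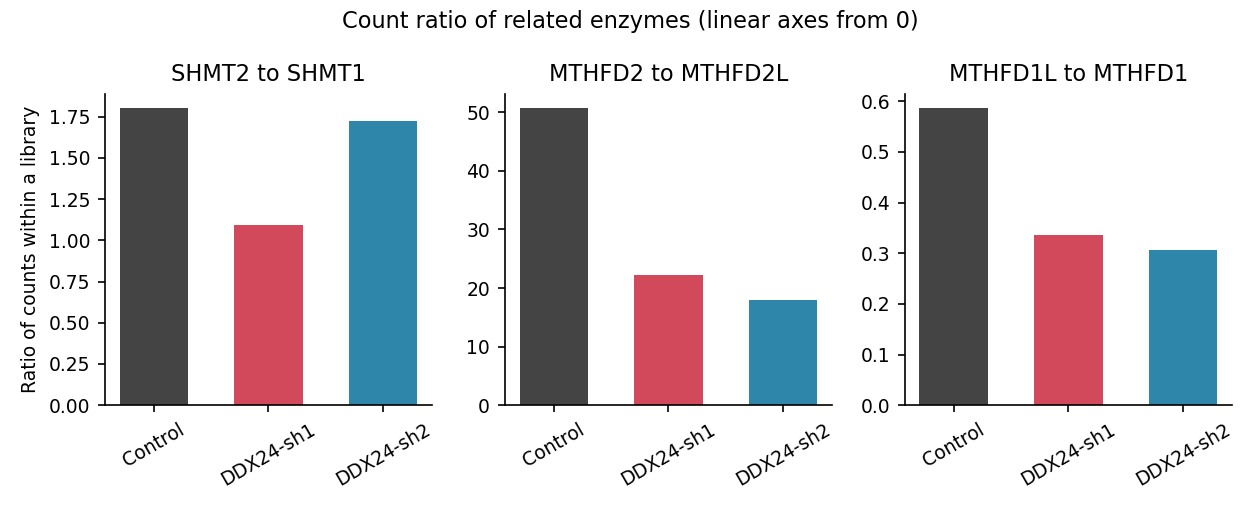
Ratio of the counts of 2 related enzymes within each library, on linear axes from 0, for SHMT2 to SHMT1, MTHFD2 to MTHFD2L and MTHFD1L to MTHFD1. Each bar is 1 library and carries no error bar. Both shRNA libraries are below the control for MTHFD2 to MTHFD2L and MTHFD1L to MTHFD1, and DDX24-sh2 is near the control for SHMT2 to SHMT1.

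Between genes, levels can be compared only per length, here as CPM per kilobase of the deposited gene length. PSAT1 was highest in the control, at 193.8, followed by MTHFD2 at 77.4, PSPH at 26.6 and SHMT2 at 26.0, of which PSPH and SHMT2 did not differ beyond counting error. MTHFD1L at 18.7, MTHFD1 at 17.1, PHGDH at 14.3, SHMT1 at 9.61, ALDH1L2 at 3.09 and MTHFD2L at 0.758 came next. In both shRNA libraries PSAT1 (92.0 and 102.5) and MTHFD2 (23.5 and 28.7) stayed first and second in order at these lengths. The deposited length is that of all exons of a gene, which for PHGDH is 9217 bases against 2585 bases of its longest principal transcript. With the length of such transcripts, a setting chosen after the data were seen, PHGDH was at 51.0 in the control, level with MTHFD1 at 51.1 and SHMT2 at 49.6 within counting error. In DDX24-sh1 and DDX24-sh2, PHGDH was then at 17.3 and 17.1, well below MTHFD1 at 51.9 and 58.6. At these transcript lengths PSAT1 was still first, but MTHFD2, second in the control at 84.6, ranked 5 in DDX24-sh1 at 25.7 and 4 in DDX24-sh2 at 31.4, below MTHFD1 and SHMT2 in both. The makeup of the pathway's counts also differed. Of all counts of the 10 genes, MTHFD2 held 25.3% in the control but 14.0% and 15.5% in the shRNA libraries, whereas MTHFD1 held 10.7%, 19.9% and 20.3%.

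Copies and overlapping neighbours of the 10 genes were looked up in the annotation. The 14 annotated pseudogenes of the members had at most 3 counts in a library, found for MTHFD2P7, and how reads with several matches were treated is not known. Exons of PHGDH, PSAT1 and PSPH overlap no other gene. MTHFD1L holds other genes in its introns (ARL4AP5, RNU6-302P, AL133260.1, AL133260.2 and AL138733.1, with at most 6 counts) but shares no exonic base with them. SHMT1 shares 196 exonic bases with SMCR8, MTHFD1 178 bases with ZBTB25 and ALDH1L2 145 bases with C12orf45 on the opposite strand, and whether counting used strand is not given in the sources used here. MTHFD2 shares 1324 bases with SLC4A5, which had 5 to 9 counts, and SHMT2 33 bases with NDUFA4L2, which had 15 to 45. The other overlapping genes, namely AL122035.1 and AL122035.2 (MTHFD1), AC006030.1 (MTHFD2), AC137834.2 (SHMT2), AC093677.2 (MTHFD2L) and MIR6778 (SHMT1), had at most 22 counts. Counts of SMCR8, at 1407 to 1860, were of the order of those of SHMT1. Counts of C12orf45, at 290, 307 and 322 in the control, DDX24-sh1 and DDX24-sh2, exceeded those of ALDH1L2 in both shRNA libraries, where ALDH1L2 had 149 and 170. A part of the SHMT1 and ALDH1L2 counts therefore cannot be assigned with certainty.

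Other genes of one-carbon metabolism were read from a list of 43 genes, which covered glycine cleavage, folate reduction and thymidylate synthesis, transport, the methionine cycle with transsulfuration, purine synthesis and other serine enzymes, and of which 34 passed the filter. The medians of their log2 ratios were -0.09 (DDX24-sh1) and 0.02 (DDX24-sh2). Of these 34 genes, 13 were lower and 12 higher than the control in both, beside 5618 and 4832 of all 13984 genes past the filter. Counting intervals lay below 0 in both libraries for 8 of the 34 genes, beside 20.6% of all genes past the filter, and above 0 for 8, beside 14%. At least 2-fold lower levels in both libraries were found for 3 of the 34 genes, SLC1A4, SLC1A5 and CBS, beside 1.38% of all genes, and no gene of the list was 2-fold higher in both, beside 1.19%.

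SLC1A4, a transporter of serine, alanine and cysteine, had 1268 control counts and 335 and 324 in the shRNA libraries. Its log2 ratio was below those of each of the 10 enzymes in DDX24-sh1, at -2.01 (interval -2.20 to -1.85), and likewise in DDX24-sh2, at -2.04 (interval -2.23 to -1.87). SLC1A5, which imports glutamine and other neutral amino acids, had 8931, 3685 and 4076 counts, with log2 ratios of -1.38 and -1.21. CBS, which joins serine to homocysteine in the first step of transsulfuration, had 398, 119 and 89 counts, with log2 ratios of -1.82 and -2.22, and its annotated copy CBSL had 0 counts. The transporter SFXN3 was higher than the control, at 0.30 and 0.53. CTH, the next enzyme of transsulfuration and chosen after its values were seen, differed between the libraries, with 100, 119 and 46 counts, at 0.15 (interval -0.24 to 0.55) in DDX24-sh1 but -1.17 (interval -1.74 to -0.68) in DDX24-sh2.

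Purine synthesis as a pathway takes up formyl groups from folate, though not at every step. The median log2 ratios of its genes were -0.30 and 0.01. Of these 6 genes, GART (-0.47 and -0.29) and PFAS (-0.48 and -0.17) were lower in both libraries beyond counting error, beside 20.6% of all genes past the filter. Ratios below 0 were found for all 6 in DDX24-sh1, beside 52.6% of all genes, and for 2 in DDX24-sh2, beside 53.0%. In folate reduction and storage, MTFMT, which formylates the mitochondrial initiator tRNA, was at 0.51 and 0.61, and MTHFS, which recycles 5-formyltetrahydrofolate, was at -0.48 in both libraries. In the methionine cycle, methionine synthase MTR was at 0.53 and 0.54. DLD, the shared dehydrogenase subunit of glycine cleavage, was at 0.18 and 0.33. Among the other serine and glycine enzymes, GCAT was at 0.27 and 0.25 and SDSL at 0.03 and 0.26, each with intervals that reached 0.

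**Figure D5:**
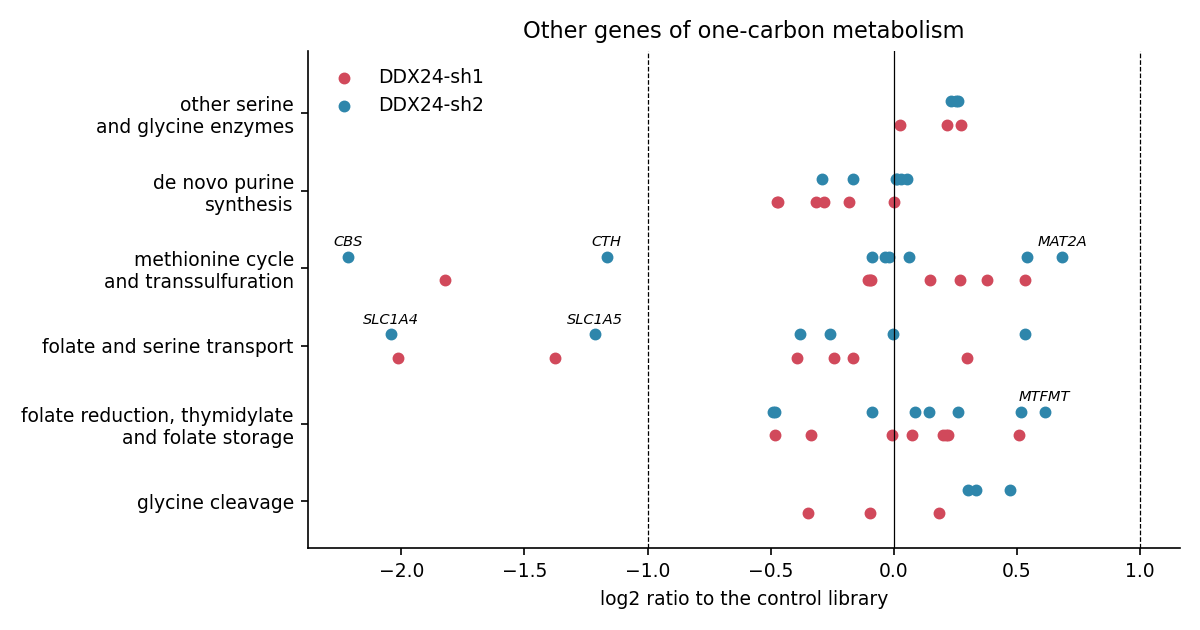
Log2 ratios to the control of the 34 other one-carbon genes past the filter, by group, in DDX24-sh1 (red) and DDX24-sh2 (blue). Each point is 1 gene in 1 library, 6 genes are named at their DDX24-sh2 point, and dashed lines mark 2-fold changes. Only SLC1A4, SLC1A5 and CBS lie below the lower dashed line in both libraries.

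ATF4, a transcription factor known to control several of these genes, had 7178 control counts against 4137 (DDX24-sh1) and 3818 (DDX24-sh2). The log2 ratios were -0.89 (interval -0.95 to -0.84) and -0.99 (interval -1.05 to -0.93). Its messenger RNA was lower in DDX24-sh2 than in DDX24-sh1, by a log2 difference of -0.10 (interval -0.16 to -0.03). The part of ATF4 in the values of the 10 enzymes was not tested. Of the 10 enzymes, PHGDH had the largest change in the library where its change was smaller, and the genes nearest to it in the pair of log2 ratios were sought among the 11101 genes that averaged 5 CPM or more. They were JDP2 at -1.60 and -1.66, DNAJB9 at -1.46 and -1.66, PDE3A at -1.62 and -1.69, AKNA at -1.49 and -1.70, and HSPA5 at -1.43 and -1.50, at Euclidean distances of 0.094 to 0.148 over these 2 ratios. JDP2 is a basic leucine zipper repressor, and DNAJB9 and HSPA5 are chaperones of the endoplasmic reticulum. With 3 libraries this likeness rests on 2 numbers per gene that share a control.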

How the data were processed

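RNA of 3 A549 libraries, 1 per condition, was sequenced by the authors. They deposited gene counts, not normalized, and FPKM values, which divide counts by gene length and library size. The submitters' processing notes name Bowtie2 2.0.6, TopHat2 2.0.9, Cufflinks 2.1.1 and Cuffdiff 2.1.1 without their roles. The counter, strandedness and treatment of reads with several matches are not given in the sources used here. Identifiers, starts and ends of all 58735 genes matched GENCODE 29 on GRCh38. In 11641 genes with at least 50 counts per library, FPKM times length over count was constant within 1% only with the shRNA labels exchanged.

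Samples were grouped by their titles. Counts were scaled with edgeR 4.0.16 in R 4.3.3 (TMM, prior count 2), and genes needed a mean of at least 1 CPM. No count model was fitted. Intervals were computed in Python 3.11.15 with scipy 1.17.1, alignments with Biopython 1.88 and figures with matplotlib 3.10.9. The steps were run on simulated counts with Poisson counting error only, in which 200 genes were lowered 4-fold in both shRNA libraries. Such counts hold no variation between cultures, so this checks the computation and not the comparison of single libraries. A count of 94 to 7237 per member gave the interval widths printed.

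The 10 genes and the list of 43 genes were chosen with earlier results of these data known. Genes named are the 10 members, DDX24, ATF4, listed genes past 2-fold in both libraries or with the highest and lowest smaller ratio of a group (among genes on the same side of 0 in both libraries), pseudogenes with at least 10 counts, of which there were 0, overlapping genes, and the 5 genes nearest to the most changed member. Alternatives were DESeq2 1.42.0 size factors, total counts, FPKM as log2(FPKM + 0.1) with labels as given and exchanged, a prior count of 0.5, other filters and fold limits, and added pseudogene counts. Chosen after seeing the data were principal transcript lengths, the CCAAT motif, FPKM for the ratios of related enzymes, CBS with its copy, and CTH as a named gene.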

Additional observations from a re-analysis of the deposited data

Results flagged for a closer look

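For 2 of the 10 genes the log2 ratios to the control lay on opposite sides of 0 in the shRNA libraries, a difference that was not tested. The same held for 25.3% of all genes past the filter. MTHFD2L was at -0.52 in DDX24-sh1 and 0.06 in DDX24-sh2, a difference of 0.58. SHMT1 was at 0.32 in DDX24-sh1 and -0.0031 in DDX24-sh2, a difference of -0.32. Its value in DDX24-sh2 was above 0, on the side of DDX24-sh1, with DESeq2 size factors (0.006), total counts (0.0259) and the FPKM with exchanged labels (0.0059). In both cases the value in DDX24-sh2 had a counting interval that held 0.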

How the results depend on the processing

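With 1 library per condition, variation between cultures was not measured, and a state of the control culture and an effect of DDX24 knockdown cannot be told apart. DESeq2 size factors, total counts and a prior count of 0.5 left each of 30 values within its counting interval (medians within the typical reach of one to either side, counts within 1.5 times), as did filters of none or of 10 CPM for 8 values each and added pseudogene counts for 12. The deposited FPKM with the shRNA labels exchanged did so for 36 values. These FPKM are the same counts divided by gene length and a constant of the library, so this is no separate check of the counts. With the labels as given, 18 of 36 moved, the values of the shRNA libraries trading places. DDX24 was then at -1.45 and -1.72, the median of the list of other one-carbon genes at 0.0298 in DDX24-sh1, and the ratio of SHMT2 to SHMT1 against the control at -0.0623 and -0.72. A fold limit of 1.5 raised the members lower in both from 3 to 6. No paired analysis was possible because each condition had 1 library.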
